A study of Rattus norvegicus with 6 samples.

Results

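The 6 genes described here serve the organic osmolytes and the polyol pathway of the lens. They are the taurine transporter Slc6a6, the sodium-coupled myo-inositol transporter Slc5a3, the neutral amino acid transporter Slc38a2, the tonicity-responsive transcription factor Nfat5, aldose reductase (Akr1b1) and sorbitol dehydrogenase (Sord). A member was any probe set whose gene symbol in the probe table of the array was 1 of these names. Each name had 1 probe set, so 6 of 18166 genes, and 6 of the 19086 probe sets linked to a gene, are described. GeneChip Rat Gene 2.0 ST arrays, 6 in all, measured the RNA of whole lenses from 6-week-old male Sprague Dawley rats. Lenses of the AZD0156 group (1 array) and of the KU55933 group (1 array) were cultured in 30 mM galactose for 3 days, then for 3 more days with that inhibitor of the kinase Atm at 20 µM. Galactose lenses (3 arrays) had 30 mM galactose for 6 days with the vehicle DMSO, and Control lenses (1 array) had sterile water in place of galactose. Whether the Control also had DMSO is not stated, so galactose and DMSO cannot be told apart against it. How many lenses went into an array is not stated either.

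A lens in high galactose takes the sugar up, and aldose reductase turns it into galactitol, a polyol that does not cross the membrane and that sorbitol dehydrogenase hardly uses. Cells also hold osmolytes such as taurine, myo-inositol and neutral amino acids, which they import or release to set their volume. Nfat5, also called TonEBP, raises transcription of Slc6a6, Slc5a3 and Akr1b1 in hypertonic medium, and its binding site is the tonicity-responsive element, TonE.

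The stretch before the start site of these genes is shown because Nfat5 is a known regulator of several of them. In RefSeq promoters of the rat build GRCr8, 4 of the 6 genes were matched (Slc6a6, Slc5a3, Slc38a2 and Sord). Nfat5 and Akr1b1 were not matched. In the 250 bases before the start, all 4 held the letters GGAAA, the core of the site, on 1 of the strands, as did 56.9% of 33469 promoters. Only Slc6a6 among the 4 held TGGAAA (19.7% of promoters) and the whole TonE consensus (5.17% of promoters), both found on the strand opposite to the gene. Each line gives 30 bases, 5′ to 3′, on the strand where the core reads GGAAA. Capitals mark the whole consensus in Slc6a6 and the core in the others.
Slc6a6, minus strand of chr4:125752331-125752360: cctgctgggTGGAAAAATACcagcttggcc
Slc5a3, plus strand of chr11:44799634-44799663: gagaagcggaGGAAAtttaaactgtctcct
Slc38a2, minus strand of chr7:129742758-129742787: cggagccacgGGAAAgcggggtgcggctgg
Sord, plus strand of chr3:129638520-129638549: taggtctgaaGGAAAtctcgtccccaaccc
The core began 156, 143, 158 and 138 bases before the start site, in this order of genes. These are matches of letters, not measured binding sites. Slc5a3 lies inside Mrps6 in the annotation, and whether its window also lies inside that gene was not checked.

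All values are log2 signals per probe set, on which a difference of 1 is a doubling, and levels are compared within a gene only. Tests used limma over the 6 arrays, and p values were adjusted over the 5784 probe sets that reached 5 on at least 1 of them. The spread came from the 3 Galactose arrays alone, and each single array was assumed to vary like them. Of all tested probe sets, 1.26% were called lower and 1.61% higher in galactose than in the Control at an adjusted p under 0.05. The median difference over these probe sets was -0.02 in galactose against the Control, but -0.18 in AZD0156 against galactose, so AZD0156 differences are read against that shift. All 6 members passed the filter. Slc5a3, Nfat5 and Sord passed it through the Control array only, and on all 3 Galactose arrays 4 of the 6 lay below 5. A gene that passes through 1 array is bound to be high there, so the values of these 3 were also computed without the filter. The tissue label was checked on lens markers. The beaded filament gene Bfsp1 ranged from 11.3 to 11.7 over the 6 arrays and the fibre membrane gene Mip from 10.9 to 11.4, and none of 6 immune, 3 endothelial or 5 retinal markers with a probe set reached 5 on any array. Of 6 iris and ciliary body markers, desmin (Des) reached 6.11 on the Control array and lay between 3.65 and 4.18 on the others. None of 4 blood markers had a probe set, so blood was not checked.

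**Figure D1:**
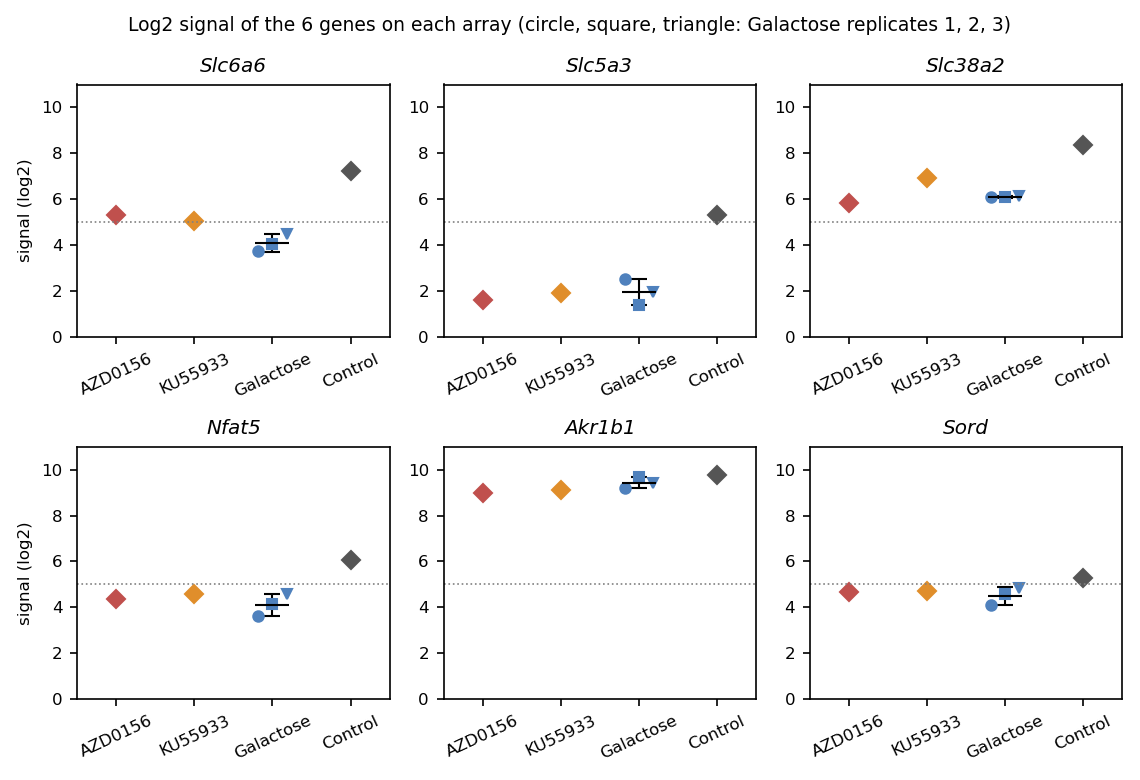
Log2 signal of each gene (vertical axis) on the AZD0156, KU55933, Galactose and Control arrays, with the Galactose mean and SD as a bar (n = 3) and the filter at 5 as a dotted line. The Control array is the highest in all 6 panels, and the gap to the Galactose arrays is wide for Slc6a6, Slc5a3, Slc38a2 and Nfat5 and narrow for Akr1b1 and Sord.

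Slc6a6 and Slc38a2, carriers of taurine and of neutral amino acids, fell in Galactose lenses against the Control lens, by 8.78-fold and 4.75-fold. They were the 2 of 6 members called lower, against 1.26% of all tested probe sets. The members were chosen with earlier results of these data known, so this count is not read as enrichment. Slc5a3 had the largest difference of the 6 but its call turned on how the spread was modelled. Nfat5 just missed the threshold, and the polyol pathway enzymes Akr1b1 and Sord did not pass. The Control was the highest array for 30.4% of tested probe sets and for all 6 members, but for Slc5a3, Nfat5 and Sord the filter alone fixed this, so nothing is read from that count. Because whole lenses were measured, fewer cells of a type and less RNA per cell cannot be told apart.

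Slc6a6 carries taurine, the most abundant free amino acid of many tissues and a major osmolyte of the lens, into cells with sodium and chloride. Its log2 signal was 3.73, 4.03 and 4.50 in Galactose replicates 1 to 3, against 7.22 in the Control. The Galactose arrays spread over less than a unit, and the Control lay far above all of them. The difference was -3.13 (standard error 0.325, 95% interval -3.90 to -2.37, limma adjusted p = 0.0125), the 6th most negative of 5784. It was not called with probe sets without a gene included (adjusted p = 0.114). The signal was 5.30 with AZD0156 and 5.02 with KU55933. Each inhibitor array thus stood above the highest Galactose array and below the Control.

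Slc38a2, the SNAT2 carrier of system A, takes up small neutral amino acids with sodium and is known to be induced by hypertonic medium and by lack of amino acids. Its signal was 6.08, 6.07 and 6.15 in the Galactose replicates, against 8.35 in the Control. These were the closest replicates of any member (SD 0.0466, n = 3). The difference was -2.25 (standard error 0.227, 95% interval -2.79 to -1.71, adjusted p = 0.0115). Leaving out Galactose replicate 3 ended the call, with a difference of -2.27 and an adjusted p of 0.0723, and so did including probe sets without a gene (adjusted p = 0.11). The signal was 5.84 with AZD0156, below all 3 Galactose arrays, and 6.91 with KU55933, above all of them.

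Slc5a3, also named SMIT1, brings myo-inositol into the cell. Its signal was 1.60 with AZD0156, 1.89 with KU55933 and 2.52, 1.39 and 1.96 in the Galactose replicates, against 5.29 in the Control. On the 5 arrays from galactose medium it stood between the 7.13 and 27.8 percentiles of the probe sets linked to a gene, and on the Control array at the 79.0 percentile. The files hold no detection call, so it is not known whether any Slc5a3 RNA was measured in galactose medium. The difference between galactose and the Control was -3.33, the 4th most negative of 5784, with an adjusted p of 0.422 and a 95% interval from -8.66 to 2.01. That interval did not come from the replicates, whose SD was 0.565. Slc5a3 had the lowest mean signal of all 5784 tested probe sets, 2.44, where the trend of spread on signal rests on very few of them. There limma set a prior SD of 2.28, against a median of 0.223 over all probe sets. Without the trend the prior SD was 0.223 and the adjusted p was 0.0215 (1.3% of probe sets called lower). With all 19086 linked probe sets in the fit they were 0.231 and 0.0311 (0.173% called lower). Mrps6, the mitochondrial ribosomal protein gene in which Slc5a3 lies, had signals of 3.95, 3.61 and 3.76 in the Galactose replicates and 4.11 in the Control, all below the filter.

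**Figure D2:**
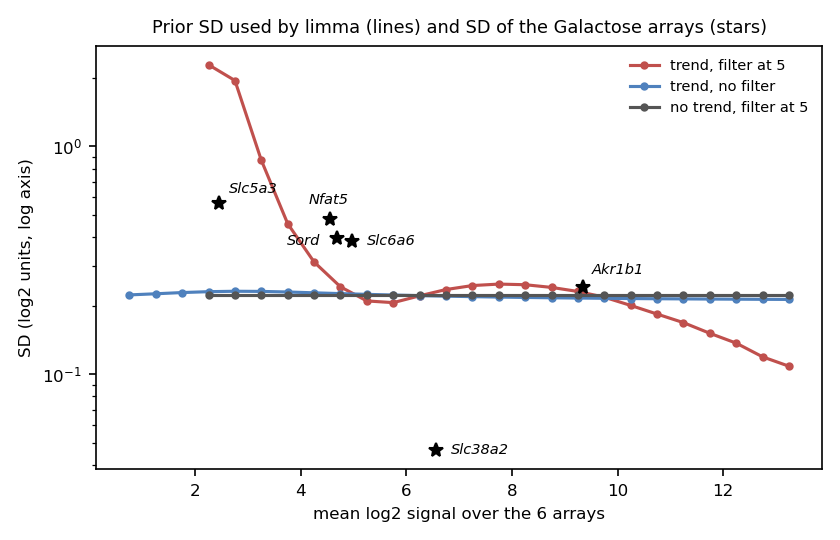
SD on the log2 scale (vertical log axis) against the mean log2 signal over the 6 arrays, with lines for the median prior SD that limma used in steps of 0.5 and stars for the SD of the 3 Galactose arrays of each gene. The prior SD of the fit with a trend and a filter at 5 climbs to 2.28 at the low end, where Slc5a3 has an SD of 0.565, while the other fits stay near 0.23 there.

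Nfat5 is the transcription factor through which many cells answer hypertonic medium. Its signal was 4.35 with AZD0156, 4.56 with KU55933 and 3.61, 4.16 and 4.57 in the Galactose replicates, against 6.06 in the Control. No array from galactose medium came within a unit of the Control. The difference between galactose and the Control was -1.95 (standard error 0.403, 95% interval -2.91 to -0.996, adjusted p = 0.0575). Without the filter, which it passed through the Control alone, the adjusted p was 0.0878. It was called in 2 of 8 alternative fits, with each array centred on its median (-1.91, adjusted p = 0.0377, where 1.57% of probe sets were called lower) and without Galactose replicate 1 (-1.70, adjusted p = 1.60e-06, where 14.1% were). In the other 6 the adjusted p ranged from 0.0543 without the trend to 0.171 with probe sets without a gene. Without replicate 1 limma weighs the prior far more (108.2 prior degrees of freedom, against 4.97), so its p values do not compare with the others.

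Akr1b1, which makes galactitol from galactose and sorbitol from glucose, had signals of 9.18, 9.67 and 9.44 in the Galactose replicates, against 9.76 in the Control. The Control was above the highest Galactose array by less than the Galactose arrays differed among themselves. The difference was -0.33 (95% interval -0.96 to 0.30, adjusted p = 0.51), so a fall by 0.96 or a rise by 0.30 on the log2 scale would be within the interval. Sord, the enzyme that oxidises sorbitol to fructose, had signals of 4.08, 4.56 and 4.86 in the Galactose replicates, against 5.28 in the Control. Its difference was -0.78 (95% interval -1.61 to 0.05, adjusted p = 0.241, or 0.372 without the filter). In none of the alternative fits was either enzyme called in this comparison.

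**Figure D3:**
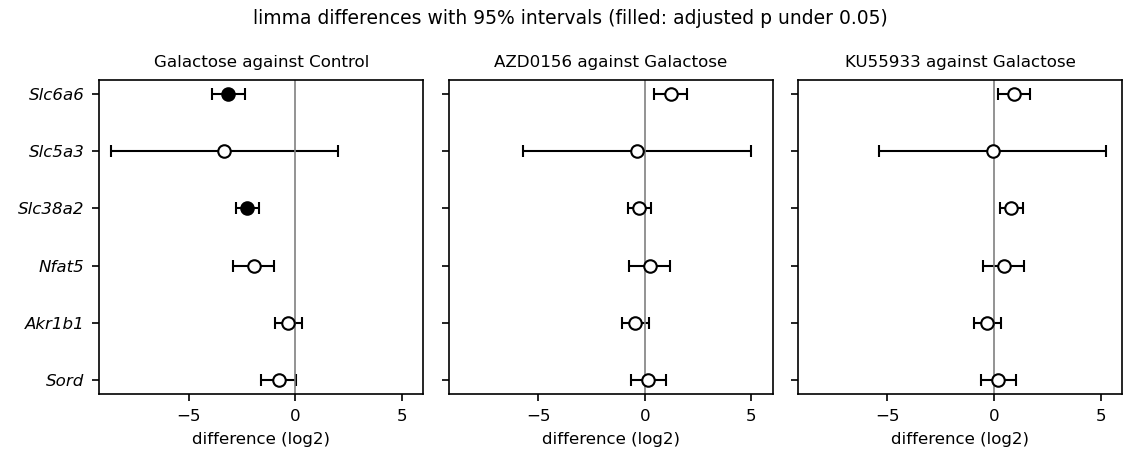
Differences in log2 signal (horizontal axis) with 95% intervals from limma for the 6 genes, in galactose against the Control and in each inhibitor against galactose. Slc6a6 and Slc38a2, the filled points at -3.13 and -2.25, are the calls, and the interval of Slc5a3 is the widest in every panel.

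With an Atm inhibitor added to galactose, Slc6a6 was the member whose signal lay farthest above galactose. Its difference was 1.22 with AZD0156 (95% interval 0.45 to 1.99, limma adjusted p = 0.227), the 13th most positive of 5784, and 0.94 with KU55933 (95% interval 0.17 to 1.71, adjusted p = 0.992). With the arrays centred on their medians these differences were 1.42 and 0.90. The AZD0156 array stood 38.8% of the way from the Galactose mean to the Control, and the KU55933 array 29.9%. These shares use the same Galactose arrays as the comparison with the Control. An array above all 3 Galactose arrays was seen for 14.2% of tested probe sets with AZD0156 and for 29.9% with KU55933.

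Slc38a2 differed from galactose by -0.27 with AZD0156 (95% interval -0.80 to 0.27, adjusted p = 0.65) and by 0.81 with KU55933 (95% interval 0.27 to 1.35, adjusted p = 0.992). Slc5a3 had differences of -0.35 under AZD0156 and -0.07 under KU55933. Nfat5 had differences of 0.24 and 0.45, and Sord of 0.17 and 0.20, each with an array inside the range of the 3 Galactose replicates. Akr1b1 differed from galactose by -0.45 under AZD0156 and -0.32 under KU55933, and its signals of 8.98 and 9.11 were below the lowest Galactose array, as were 46.6% of probe sets with AZD0156 and 17.7% with KU55933. With the arrays centred on their medians, the AZD0156 differences were -0.07 for Slc38a2, -0.15 for Slc5a3, 0.44 for Nfat5, 0.37 for Sord and -0.25 for Akr1b1. limma called 0 of the 6 in either comparison, as it did 0% of all tested probe sets. At an unadjusted p under 0.05 there were 1 member with AZD0156 (Slc6a6) and 2 with KU55933 (Slc6a6 and Slc38a2). Of all 5784 tested probe sets, 797 with AZD0156 and 200 with KU55933 had such a p. Without Galactose replicate 1, Slc6a6 was called higher with AZD0156 (1.04, adjusted p = 7.85e-04, where 1.88% of probe sets were called higher) and with KU55933 (0.76, adjusted p = 0.0357, where 3.77% were). In that fit Slc38a2 was called higher with KU55933 (0.80, adjusted p = 0.0127) and Akr1b1 lower with AZD0156 (-0.57, adjusted p = 0.00624, where 16.4% were called lower), and the prior was weighted as given for Nfat5.

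AZD0156 and KU55933 were given at the same dose for the same time, and the 6 genes were compared between them. Slc38a2 had the largest gap, with 5.84 under AZD0156 and 6.91 under KU55933, a difference of -1.08 (95% interval -1.74 to -0.42, limma adjusted p = 0.314). The median of all tested probe sets in this comparison was -0.23, and with centred arrays the Slc38a2 difference was -0.84 (adjusted p = 0.586). For Slc6a6 the difference was 0.28 (95% interval -0.66 to 1.22), for Nfat5 -0.21 (-1.37 to 0.96), for Akr1b1 -0.13 (-0.91 to 0.64) and for Sord -0.03 (-1.04 to 0.99). With centred arrays the differences were 0.52 for Slc6a6, 0.03 for Nfat5, 0.11 for Akr1b1 and 0.21 for Sord, so the last 3 turned direction. The intervals of Slc6a6, Nfat5, Akr1b1 and Sord leave room for a difference in either direction, down to -1.37 and up to 1.22. That of Slc5a3 is far wider (-6.81 to 6.25), and that of Slc38a2 lies below 0. None of the 6 was called (0% of all tested probe sets). An unadjusted p under 0.05 was seen for 1 of them and for 673 of all 5784 tested probe sets. Without Galactose replicate 1 Slc38a2 was called at the same difference (adjusted p = 0.00175), where 12.5% of probe sets were called lower. Leaving out that array changed only the modelled spread here, with the prior weighted as given for Nfat5, so this p value does not compare with the others.

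Set against the Control directly, Slc38a2 was called lower with AZD0156 (-2.51, 95% interval -3.17 to -1.85, limma adjusted p = 0.0495), where 0.104% of tested probe sets were called lower. It stood just under the threshold, and 4 of the alternative fits put it above, at an adjusted p of 0.0543 without the filter, 0.203 with probe sets not linked to a gene, 0.06 without Galactose replicate 2 and 0.137 without replicate 3. The Slc6a6 signal differed from the Control by -1.92 under AZD0156 (adjusted p = 0.0947) and by -2.20 under KU55933 (adjusted p = 0.111). Nfat5 had differences of -1.71 and -1.50 (adjusted p = 0.148 and 0.244). With KU55933, 0 of the 6 were called (0.0173% of tested probe sets were called lower and 0.138% higher). An unadjusted p under 0.05 was seen for 3, namely Slc6a6, Slc38a2 and Nfat5, and for 901 of all 5784 tested probe sets. With AZD0156 it was seen for 4, these 3 and Akr1b1 (-0.78, limma adjusted p = 0.274), and for 1041 of all 5784. Without Galactose replicate 1, Slc6a6, Slc38a2, Nfat5 and Akr1b1 were called lower than the Control with either inhibitor, but 18.8% of all tested probe sets were called lower there with AZD0156 and 8.8% with KU55933. In that fit Akr1b1 differed by -0.78 with AZD0156 (adjusted p = 7.67e-04) and -0.65 with KU55933 (adjusted p = 0.0074). The prior was weighted there as given for Nfat5, so these p values do not compare with the others. Without the trend Slc5a3 was called with AZD0156 (-3.68, adjusted p = 0.0466, where 0.45% of probe sets were called lower). It passed the filter through the Control alone, and without the filter it was not called (adjusted p = 0.0804). All comparisons with the Control rest on the same single array.

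For Slc6a6 the order of the conditions was the Control, AZD0156, KU55933 and galactose, from high to low, with the inhibitor arrays 0.28 apart and within the spread of the replicates (SD 0.385). With centred arrays the inhibitor arrays were 0.52 apart, more than the replicate SD of 0.328. For Slc38a2 the order was the Control, KU55933, galactose and AZD0156, with the last step at -0.27, or -0.07 with centred arrays. For Nfat5 and Sord the inhibitor arrays and galactose overlapped below the Control. For Slc5a3 they overlapped too, with AZD0156 and KU55933 inside the Galactose range of 1.39 to 2.52. For Akr1b1 it was the Control, galactose, KU55933 and AZD0156, with neighbours at most 0.33 apart. With centred arrays AZD0156 came above KU55933 by 0.11, so the order of the inhibitors for Akr1b1 is not settled.

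The related genes of osmolyte handling were described by 5 lists, which also hold the 6 members. Of the genes named from these lists and the markers, Slc38a4, Csad, Sgk1, Slc12a2 and Des also passed the filter through the Control array only, and their adjusted p without the filter is given too. Of 12 genes for osmolyte transport, 10 had a probe set and 6 were tested. The 2 called lower in galactose were Slc6a6 and Slc38a2, and 0 were called higher. The median over the 10 was -0.50, against 0.05 over all 19086 linked probe sets, and 5 of the 10 were below 0. Those 5 included the members Slc6a6, Slc5a3 and Slc38a2, so the median in part restates their values. Most of the other genes with a probe set in this list lay above 0. Slc38a4, another system A carrier and one named after its values were seen, had signals of 3.41, 3.27 and 3.40 in the Galactose replicates and 5.57 in the Control (-2.21, adjusted p = 0.066, or 0.0204 without the filter). Slc38a1, the third carrier of that system, was at 0.48 (adjusted p = 0.266), and the creatine transporter Slc6a8 at 0.59 (adjusted p = 0.318).

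In galactose against the Control, 1333 of all 5784 tested probe sets had an unadjusted p under 0.05. In the list of osmolyte synthesis and breakdown, 0 of 4 tested genes were called by limma and 1 had an unadjusted p under 0.05. That gene was Csad, which makes hypotaurine, the precursor of taurine. Its signal was 4.26, 4.37 and 4.35 in the Galactose replicates, against 5.52 in the Control (-1.20, adjusted p = 0.0799, or 0.0896 without the filter). Isyna1, which makes inositol phosphate from glucose 6-phosphate, stood at -0.52 (adjusted p = 0.321). The 12 genes of this list had a median of 0.08. In the polyol and fructose list, 0 of 5 tested genes were called and 1 had an unadjusted p under 0.05, Fn3k, the kinase that removes fructose adducts from proteins, at -1.08 (adjusted p = 0.0575). Akr1a1, the aldehyde reductase related to Akr1b1, was at 0.50 (adjusted p = 0.286). The median over the 10 genes with a probe set was -0.06.

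In the list of Nfat5 and the tonicity response, 0 of 4 tested genes were called and 1 had an unadjusted p under 0.05, Nfat5 itself. Sgk1, a kinase induced by osmotic and hormonal stimuli, was at -0.57 (adjusted p = 0.304, or 0.419 without the filter), and the calcineurin-dependent relative Nfatc3 was at -0.53 (adjusted p = 0.238). The median over the 9 genes with a probe set was -0.53. Of the channels and cotransporters that move ions during cell volume control, 0 of 8 tested genes were called. Against 1333 of all 5784 tested probe sets, 4 of these genes had an unadjusted p under 0.05. These were the sodium, potassium and chloride cotransporter Slc12a2 (-1.33, adjusted p = 0.0887, or 0.0987 without the filter), the related kinases Stk39 (-0.79, adjusted p = 0.179) and Oxsr1 (-0.56, adjusted p = 0.185) that act on it, and the anion channel subunit Lrrc8d (0.75, adjusted p = 0.153). Lrrc8a, the required subunit of the volume-regulated anion channel, was at -0.26 (adjusted p = 0.502), and the median of the list over 12 genes was -0.18.

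**Figure D4:**
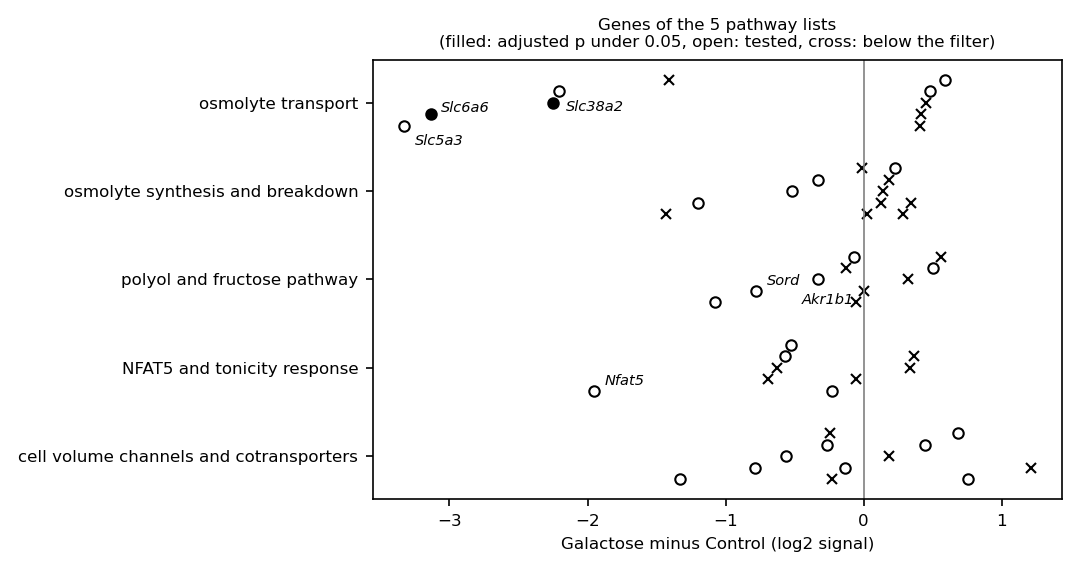
Difference between galactose and the Control in log2 signal (horizontal axis) for each gene with a probe set in the 5 lists, filled where the adjusted p was under 0.05, open where tested and a cross where below the filter. The transporters Slc5a3, Slc6a6 and Slc38a2 lie at -3.33, -3.13 and -2.25, left of every gene of the other 4 lists.

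Of 8 lens epithelium markers with a probe set, 7 were tested and 3 were called lower in galactose, against 1.26% of all tested probe sets, namely the water channel Aqp1 (-2.43, adjusted p = 0.0106), Foxe3 (-1.87, adjusted p = 0.0349) and Six3 (-1.33, adjusted p = 0.0427). The epithelial markers Pax6 (-0.22), Cdh1 (0.15), Gja1 (0.12) and Col4a1 (-1.19, adjusted p = 0.148) did not pass, and Itga6 lay below the filter. The summed linear signal of the 8 was 595.4 with AZD0156, 576.9 with KU55933, 448.1 to 1046 in galactose and 1132 in the Control, and the lowest log2 signal of any of them was 3.46. Of 6 fibre markers, the connexin gene Gja3 was called (-1.49, adjusted p = 0.0433). Of 6 iris and ciliary body markers, the 1 tested, desmin (Des), was called lower (-2.23, adjusted p = 0.0381, or 0.0324 without the filter), and the other 5 stayed below 5. The lists were chosen with earlier results of these data known, so the counts of called markers are not read as enrichment. The part of these markers in the values of the 6 genes was not tested.

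The genes whose profile over the 6 arrays was closest to each member were found by the root mean square distance between log2 profiles, each centred on its own mean. For Slc6a6 they were the cation exchanger Slc24a2 (0.424), the myelin gene Mobp (0.436) and Aqp1 (0.448). For Slc5a3 they were the serine protease gene Htra3 (0.381), the histone gene H2az2l1 (0.393) and Lix1 (0.486). Slc38a2 had closer neighbours, the lipid synthesis regulator Srebf1 (0.168), the cyclin-dependent kinase inhibitor Cdkn1c (0.21) and the actin-binding protein gene Marcks (0.251). Srebf1 stood at 5.08 with AZD0156, 5.78 with KU55933, 4.97, 4.94 and 5.04 in the Galactose replicates and 7.04 in the Control. The nearest to Nfat5 were the potassium channel gene Kcnh1 (0.197), 4930488N24Rikl (0.212) and the mitochondrial carrier Slc25a23 (0.227). Akr1b1 was closest to Tax1bp1 (0.0448), Tom1l1 (0.0765) and Pdk2 (0.0835), and Sord to Limd1 (0.0678), Ide (0.0765) and Cspg4b (0.0774). Among the members the closest pair was Akr1b1 and Sord (0.321), followed by Slc38a2 and Nfat5 (0.381). Of these neighbours, Slc24a2, Mobp, Htra3, H2az2l1, Kcnh1, 4930488N24Rikl and Slc25a23 passed the filter through the Control array only. Such genes are bound to be high there. The profiles were centred but not scaled, so genes that change little come out close even where their shapes differ. Akr1b1 and Sord, the closest pair of members, differed from galactose by -0.45 and 0.17 with AZD0156. With KU55933 they differed from it by -0.32 and 0.20. The profiles share all 6 arrays, and the distances are a description with no test.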

How the data were processed

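The deposited values are log2 signals per probe set of the 6 arrays, which the authors made for all samples at once with Robust Multi-array Average (RMA) in R. RMA corrects the background, equalises the distributions of the arrays by quantiles and summarises the probes of each set. The package, its version and the annotation are not given in the sources used here. Values were used as deposited. Of 36685 probe sets, 19086 had a gene in the probe table (18511 to 1 symbol, 575 to several), and as in the methods those under 5 on all arrays were left out, leaving 5784. Tests used limma 3.58.1 in R 4.3.3 with all 6 arrays, 4 group means, 2 residual degrees of freedom, a trend on mean signal and Benjamini-Hochberg adjustment over the 5784 probe sets (threshold 0.05, two-sided). The methods name no test for the arrays. Summaries used Python 3.11.15 with pandas 2.3.3.

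The arrays are separate samples by their labels, and nothing says that they came from separate animals, so p values measure the spread between these arrays, which may be technical. The number of arrays limits the precision, with a median standard error of 0.257 for 1 array against the Galactose mean. Alternatives were no filter, a filter at 6, centred arrays, no trend, probe sets without a gene included, and each Galactose replicate left out. Genes named are the 6 members, the called genes of each list or otherwise the 2 largest differences among its tested genes, called markers, the defining markers of the lens, the 3 nearest profiles per member, and further genes chosen after their values were seen (Slc38a4, Cdo1, Slc38a1, Slc6a8, Akr1a1, Nfatc3, Lrrc8a, Lrrc8d, Oxsr1 and Mrps6). The members and lists were chosen with earlier results of these data known. Promoters are RefSeq sequences of GRCr8, searched on both strands. RefSeq gene positions were used to find genes that overlap the members.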

Additional observations from a re-analysis of the deposited data

How the results depend on the processing

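In galactose against the Control, the 6 genes kept a negative difference in all 46 values computed under the alternatives. Slc5a3 was called without the trend and without the filter, at -3.33 as in the main fit. It stood at -3.29 with centred arrays and ranged from -3.61 to -3.04 with a replicate left out. Nfat5 was called with centred arrays (-1.91), and over the fits that left out 1 Galactose replicate it ranged from -2.18 to -1.70. With probe sets without a gene included, Slc6a6 (-3.13, adjusted p = 0.114) and Slc38a2 (-2.25, adjusted p = 0.11) lost their calls. Slc38a2 ranged from -2.27 to -2.23 with a replicate left out, and Slc6a6 was called in each of those fits. The 166 probe sets called in this comparison became 69 without the filter, 109 with a filter at 6, 0 with probe sets without a gene, and 6 to 1642 with a replicate left out (6 without replicate 3, 47 without replicate 2, 1642 without replicate 1). For AZD0156 against the Control the 12 calls became 2 without the filter, 5 with a filter at 6, 24 with centred arrays (16 higher and 8 lower, against 6 and 6), 37 without the trend, 0 with probe sets without a gene and 0 to 1400 with a replicate left out. For KU55933 against the Control the 9 calls became 18 with centred arrays (11 higher and 7 lower, against 8 and 1), 0 with probe sets without a gene and 0 to 1113 with a replicate left out. Leaving out a replicate gave 0 to 1055 calls for AZD0156 against galactose, 0 to 439 for KU55933 against galactose and 0 to 804 for AZD0156 against KU55933, the highest each time without replicate 1. Among uncalled differences, those between AZD0156 and KU55933 turned direction with centred arrays for Nfat5 (0.03), Akr1b1 (0.11) and Sord (0.21). Without replicate 1, so did Nfat5 (-0.01) and Sord (-0.04) for AZD0156 against galactose, and Slc5a3 (0.21) and Sord (-0.02) for KU55933 against galactose. Slc5a3 and Sord had no value with a filter at 6. No paired analysis was possible because the Control and inhibitor groups have 1 array each. The single Control array could not be left out.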

Other observations

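Cdo1, cysteine dioxygenase, which starts the route from cysteine to taurine, lay below the filter on every array and was singled out after its values were seen. Its log2 signal was 3.45 with AZD0156, 2.67 with KU55933, 2.78, 2.50 and 2.96 in Galactose replicates 1 to 3 and 4.18 in the Control. In the fit without a filter it differed between galactose and the Control by -1.43 (limma adjusted p = 0.0878). Csad, the next enzyme of that route, stood at 4.13 with AZD0156 and 4.06 with KU55933, below the lowest Galactose array. Its differences from galactose were -0.20 with AZD0156 and -0.27 with KU55933 (limma adjusted p = 0.808 and 0.992). The median difference of all tested probe sets with AZD0156 was -0.18. An array below all 3 Galactose arrays was seen for 46.6% of tested probe sets with AZD0156 and 17.7% with KU55933.

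Among the Galactose arrays, replicate 1 was the lowest for 4 of the 6 genes (Slc6a6, Nfat5, Akr1b1 and Sord), and replicate 3 was the highest for 4 of the 6. Slc5a3 was highest in replicate 1. Replicate 1 also had the lowest summed signal of the epithelial markers, 448.1, against 1007 and 1046 in replicates 2 and 3. Of these markers, Six3 (5.89, 5.98 and 5.62 in replicates 1 to 3) and Itga6 (3.63, 3.48 and 3.46) were not lowest in replicate 1. The share of all tested probe sets that were lowest in replicate 1 was not computed.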
